A study of Mus musculus with 8 samples.

Results

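The 41 genes described here encode the core machinery that copies DNA in S phase and a few regulators of the G1/S step, and they were taken by symbol from the 24346 gene symbols of the series. The rule that picks them uses gene symbols alone, but the list was chosen with earlier results of these data known. All 41 were present in the data, and all 41 were among the 12003 genes that reached an FPKM (sequenced fragments, corrected for the length of the transcript and the size of the library) of at least 1 in at least 2 libraries and were tested. RNA was sequenced from wild-type mouse bone marrow cells of 2 kinds. LSK cells were the Lin- Sca-1+ c-Kit+ population, which holds HSCs and multipotent progenitors, and HSCs (LT-HSC in the labels) were its CD48- and CD150+ fraction. Each was cultured for 1 day alone or together with red blood cells (RBCs), and each of the 4 resulting groups had 2 libraries. All cultures contained thrombopoietin and stem cell factor, the RBCs came from C57BL/6 blood that was passed through a leukocyte filter and irradiated, and CD45-positive cells were sorted after lysis of the RBCs. The study used female or male mice of 8 to 20 weeks, with no age given for a single library, and nothing says that the 2 libraries of a group came from different animals or cultures, so p-values measure the spread between these libraries, which may be technical.

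Before S phase, the origin recognition complex, CDC6 and CDT1 load the MCM2-7 helicase onto DNA, a step called licensing. Cyclin-dependent and CDC7 kinases then turn the helicase on with CDC45, GINS and MCM10, and polymerases, a sliding clamp and a ligase copy the strands. Most of these genes are transcribed at the G1/S step under E2F transcription factors, which are released from retinoblastoma proteins when cyclin E and its kinase become active. HSCs in the marrow are mostly quiescent, and in culture with stem cell factor and thrombopoietin they leave quiescence and enter the cell cycle.

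To show the promoter letters that E2F proteins are known to recognise, the RefSeq promoter windows (250 bases before to 50 bases after the start, GRCm38.p6) of the members were searched on both strands for TTTCCCGC, TTTCGCGC, TTTGCCGC and TTTGGCGC. A window was given for 34 of the 41 members, and 12 of these 34 genes (35.3%) held at least 1 match. Of all 32851 windows 2.26% held one, as did 4.74% of the 9157 tested genes that had a window. The windows below belong to the 4 genes with a match that had the smallest p in the comparison of LSK cells with HSCs in the presence of RBCs, and capitals mark the matches.
Lig1, chr7:13278576-13278875, plus strand: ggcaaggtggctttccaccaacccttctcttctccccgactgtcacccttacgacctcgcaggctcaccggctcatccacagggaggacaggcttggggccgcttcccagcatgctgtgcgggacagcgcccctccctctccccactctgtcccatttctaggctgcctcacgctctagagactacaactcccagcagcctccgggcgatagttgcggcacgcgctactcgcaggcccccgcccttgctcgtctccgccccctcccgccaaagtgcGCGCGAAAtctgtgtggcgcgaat
Mcm5, chr8:75109259-75109558, plus strand: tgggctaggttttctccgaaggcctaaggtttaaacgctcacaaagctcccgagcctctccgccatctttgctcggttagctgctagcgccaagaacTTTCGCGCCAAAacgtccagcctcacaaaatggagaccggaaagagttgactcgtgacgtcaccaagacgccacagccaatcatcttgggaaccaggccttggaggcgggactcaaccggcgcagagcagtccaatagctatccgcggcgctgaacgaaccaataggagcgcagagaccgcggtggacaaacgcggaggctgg
Mcm6, chr1:128359656-128359955, minus strand: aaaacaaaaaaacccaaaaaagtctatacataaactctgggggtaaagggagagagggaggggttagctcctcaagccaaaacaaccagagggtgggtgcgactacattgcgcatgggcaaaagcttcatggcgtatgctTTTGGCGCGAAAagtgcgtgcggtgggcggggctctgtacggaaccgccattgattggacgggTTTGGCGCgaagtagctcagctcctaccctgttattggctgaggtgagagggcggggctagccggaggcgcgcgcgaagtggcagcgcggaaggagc
Mcm7, chr5:138171834-138172133, minus strand: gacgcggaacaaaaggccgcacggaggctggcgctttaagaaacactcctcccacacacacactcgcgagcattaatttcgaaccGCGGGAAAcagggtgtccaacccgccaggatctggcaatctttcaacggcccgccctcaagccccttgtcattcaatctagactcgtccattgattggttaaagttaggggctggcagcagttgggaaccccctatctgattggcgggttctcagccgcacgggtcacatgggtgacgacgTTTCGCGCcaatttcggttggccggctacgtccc
Each is written 5′ to 3′ along its gene. Lig1, which had 3 windows, had 1 match in the window shown, starting 26 bases after the start. Mcm5 had 2 matches and Mcm6 had 3, and in each gene 2 of them share bases on opposite strands. Mcm7, which had 2 windows, had matches in the window shown that start 165 bases before and 16 bases after the start. Other members with a match were Orc1, Cdc6, Cdt1, Mcm3, Pola1, Pold1, Rfc3 and Uhrf1. Tk1, which differed most between the cell types, had none in this window. A match is a description of letters and not of a bound site.

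The libraries carried the markers of their sort. Flt3, a receptor of multipotent progenitors that HSCs lack, was at 15.5 to 22.5 FPKM in the 4 HSC libraries and 89.1 to 100.7 in the 4 LSK libraries. Cd48 was at 16.0 to 42.7 FPKM in HSC and 123.5 to 184 FPKM in LSK libraries, and Slamf1, which encodes CD150, at 5.50 to 10.7 and 3.09 to 4.63 FPKM. The sum of all FPKM values ranged from 680942 to 752107. Absolute depth is unknown, but relative depth was estimated from the steps between low FPKM values. It ranged from 0.886 to 1.13 with LSK control replicate 1 set to 1. The search was limited to ratios near 1, so a larger difference in depth would not have shown. Replicates differed by a median of 0.0628 to 0.123 on the log2 scale over the members. Summed over the 41 genes, FPKM reached 4259 and 4252 in HSCs alone, 4467 and 4340 in HSCs with RBCs, 3509 and 3667 in LSK cells alone, and 3137 and 2968 in LSK cells with RBCs. The sum was therefore higher with RBCs in HSCs and lower with RBCs in LSK cells, and the 4 groups did not overlap. As RNA came from many cells at once, fewer cells in S phase and less of these RNAs per cell cannot be told apart.

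**Figure D1:**
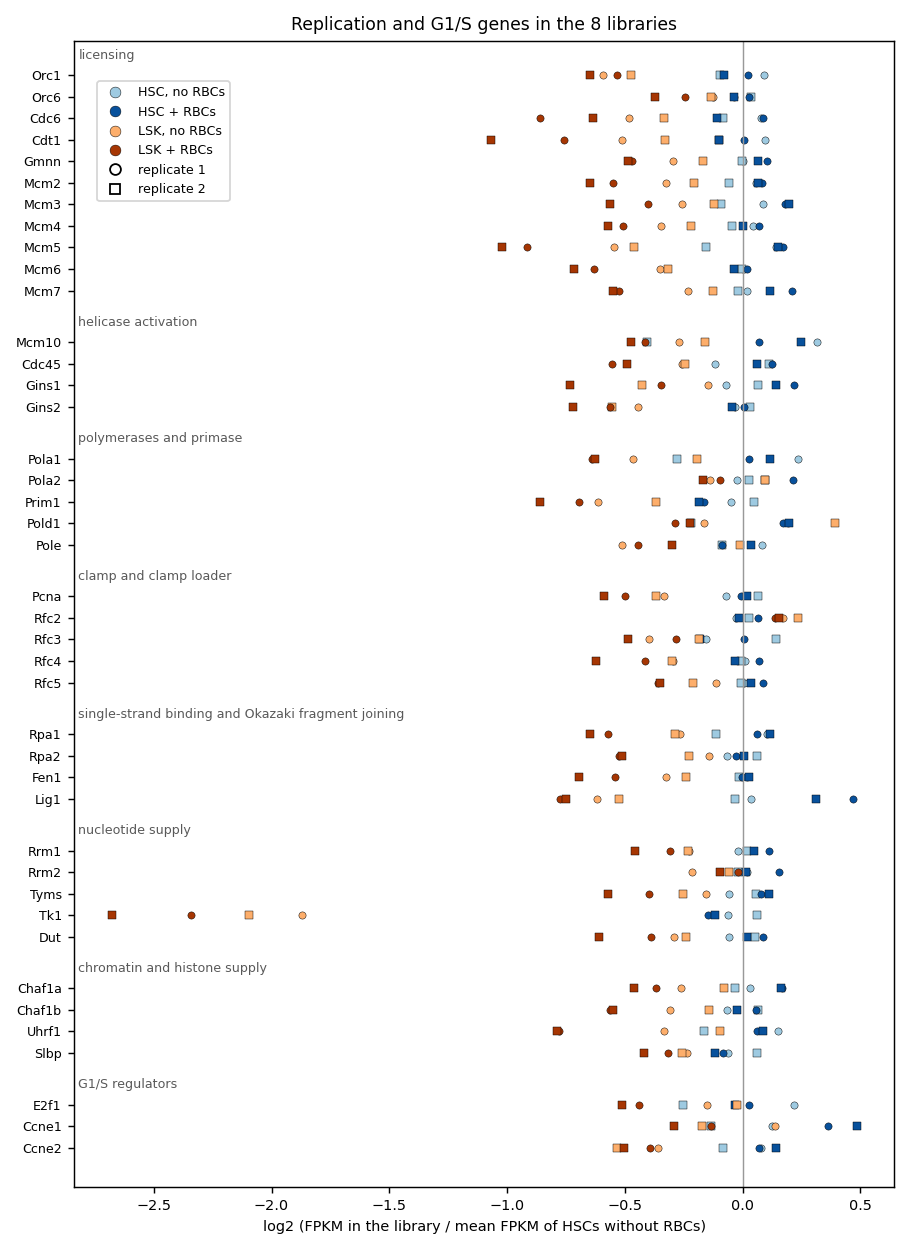
Level of each of the 41 genes in each of the 8 libraries, as log2 of its FPKM over the mean FPKM of HSCs without RBCs, in rows ordered by role (circles and squares, replicates 1 and 2). Both LSK libraries with RBCs (dark brown) lie left of both LSK controls for 33 of the 41 genes, Tk1 is set apart by cell type, and Rfc2 is the one gene with all LSK libraries to the right of all HSC libraries.

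To find out whether RBCs shift the replication genes of both populations alike, the effect of RBCs was fitted in each on the log2(FPKM + 1) scale (limma, Benjamini-Hochberg adjustment over all 12003 genes). In LSK cells 40 of the 41 genes had a lower mean with RBCs (52.0% of all tested genes), with a median log2 fold change of -0.24, against -0.0095 over all tested genes. Both libraries with RBCs lay below both without for 33 of the 41, where 26.4% of all tested genes did so. Most members are transcribed together at the G1/S step and all were read in the same libraries, so they can move together. Here and below, counts of members are therefore not counts of independent results. At an adjusted p under 0.05, 7 of the 41 fell and 0 rose, while 1.13% of all tested genes fell and 2.32% rose at this threshold. In the unadjusted test 26 fell and 0 rose at p under 0.05, against 9.04% and 9.52% of all tested genes. None reached 2-fold.

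Of the 11 licensing genes, 4 fell, and all 4 were subunits of the MCM2-7 helicase. Mcm5 had 96.3 and 102.2 FPKM in LSK cells alone and 74.7 and 69.4 FPKM with RBCs, a log2 fold change of -0.46 (SE 0.095, adjusted p = 0.036). Mcm7 went from 182 and 196 FPKM to 149 and 146 FPKM, a log2 fold change of -0.36 (SE 0.065, adjusted p = 0.0216). Mcm6, at 283 and 290.5 FPKM alone, had 233.5 and 220.0 FPKM with RBCs, a log2 fold change of -0.34 (SE 0.060, adjusted p = 0.0192). For each of these subunits the libraries with RBCs lay below those without by more than the replicates differed. Mcm2 followed with 115 and 125 FPKM alone and 98.6 and 91.9 FPKM with RBCs (log2 fold change -0.33, SE 0.073, adjusted p = 0.0437). Mcm3 and Mcm4, the remaining subunits, were at -0.29 and -0.25 on the log2 scale with adjusted p of 0.103 and 0.101. The largest difference among the licensing genes, -0.48, belonged to Cdt1, the loader of the helicase, which went from 29.1 and 33.0 FPKM to 24.5 and 19.8 FPKM and did not pass (SE 0.12, adjusted p = 0.0709). Gmnn, the inhibitor of CDT1, was at -0.24, and Orc1, the largest subunit of the origin recognition complex, at -0.050 with overlapping libraries.

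Further members that fell act in strand joining, single-strand binding and chromatin. Uhrf1, which brings the maintenance DNA methyltransferase to newly copied DNA, had 41.4 and 48.9 FPKM alone and 30.4 and 30.3 FPKM with RBCs, the largest change of the 41 in LSK cells (log2 fold change -0.55, SE 0.11, adjusted p = 0.0337). Rpa2, a subunit of the single-strand binding protein RPA, had 119.7 and 113 FPKM alone and 92.0 and 92.6 FPKM with RBCs (-0.33, SE 0.068, adjusted p = 0.0354). Fen1, the nuclease that trims Okazaki fragments, had 101.2 and 107.5 FPKM alone and 87.3 and 78.5 FPKM with RBCs (-0.33, SE 0.072, adjusted p = 0.0421). In all 3 genes the libraries with RBCs lay below those without. Of the exonic bases of Fen1, 84.2% are shared with genes on the other strand (Tmem258 and Gm10143), and the library kit does not mark strand, so its reads cannot be fully told from theirs.

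The other role groups were helicase activation (4 genes), polymerases and primase (5), clamp and clamp loader (5), nucleotide supply (5) and G1/S regulators (3). In these groups 0 genes passed in LSK cells (limma). At an unadjusted p under 0.05, 9 were lower and 0 higher, against 9.04% and 9.52% of all tested genes. Tk1, the thymidine kinase of the salvage pathway, had 23.0 and 19.6 FPKM alone and 16.5 and 13.1 FPKM with RBCs, a difference of -0.50 (SE 0.12, adjusted p = 0.054). Pcna, the sliding clamp and the member with the highest mean FPKM, had 319 and 311.5 FPKM alone and 284 and 267 FPKM with RBCs (-0.19, SE 0.067, adjusted p = 0.166). Gins2, Rrm1, the large subunit of ribonucleotide reductase, and Slbp were at -0.14 (SE 0.079, adjusted p = 0.384), -0.15 (SE 0.069, adjusted p = 0.279) and -0.12 (SE 0.068, adjusted p = 0.391). These 3 genes had libraries that did not overlap and did not pass. Rfc4 of the clamp loader was at -0.22 (SE 0.080, adjusted p = 0.192), Cdc45 of the active helicase at -0.26 (SE 0.088, adjusted p = 0.153), and Prim1, the catalytic primase subunit, at -0.28 (SE 0.094, adjusted p = 0.153). Pold1, the catalytic subunit of polymerase delta, was at -0.36 with a wide error (SE 0.17, adjusted p = 0.301). Its LSK libraries without RBCs stood at 39.3 and 57.9 FPKM, and the SE draws on the spread within all 4 groups. The transcription factor E2f1 was at -0.38 (SE 0.13, adjusted p = 0.182). The only member with a mean above that of the control was Rrm2, the regulated subunit of ribonucleotide reductase, at 98.5 and 109.9 FPKM alone and 113 and 106.8 FPKM with RBCs, groups that overlapped.

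The number of calls in LSK cells changed when 1 library was left out. Such a fit keeps a single library in that group and has fewer residual degrees of freedom. The number of calls in it therefore does not show the weight of a single library. The median over the 41 genes stayed between -0.287 and -0.198 when any 1 library was left out, and between 36 and 40 of the genes kept a mean below that of the control.

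In HSCs 1 of the same 41 genes passed the test. The median log2 fold change with RBCs was 0.060 (-0.0062 over all tested genes), 29 of the 41 means were higher (48.2% of all tested genes) and 12 were lower, and the range ran from -0.17 to 0.41. Lig1 rose, against 1.57% of all tested genes that rose at the same threshold, and 0 members fell, against 0.958% (limma). In the unadjusted test 4 members rose and 0 fell at p under 0.05, against 6.76% and 6.91% of all tested genes. Libraries did not overlap for 13 members with higher values and 3 with lower values, where 19.9% and 21.8% of all tested genes did so. The median was 0.0237 with 25 means higher without the second HSC library alone, and 0.0336 with 27 without the first HSC library with RBCs. Under scaling of each library to the same FPKM sum it was 0.0952 with 36 means higher, and the median of all tested genes was then 0.0252.

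Lig1, the ligase that seals Okazaki fragments, had 71.0 and 67.7 FPKM in HSCs alone and 96.0 and 86.2 FPKM with RBCs. Both libraries with RBCs lay above both without, and the log2 fold change was 0.39 (SE 0.078, adjusted p = 0.0359). This call was lost whichever library was left out, LSK libraries included, in fits with fewer residual degrees of freedom. In LSK cells Lig1 had 45.2 and 48.2 FPKM alone and 40.6 and 41.3 FPKM with RBCs, a difference of -0.18 (SE 0.078, adjusted p = 0.248).

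Ccne1, which encodes cyclin E1, showed the largest difference in HSCs, with 17.6 and 14.7 FPKM alone and 20.8 and 22.6 FPKM with RBCs, but did not pass (log2 fold change 0.41, SE 0.13, adjusted p = 0.189). Ccne2, which encodes cyclin E2, was at 0.098 and E2f1 at 0.015 on the log2 scale, with overlapping libraries. Among the licensing genes in HSCs, Mcm3, Mcm5 and Mcm7 had the largest differences. Mcm3 had 224 and 198 FPKM alone and 239 and 242 FPKM with RBCs (0.19, SE 0.084, adjusted p = 0.364), and Mcm7 had 217 and 212 FPKM alone and 248 and 232 FPKM with RBCs (0.16, SE 0.065, adjusted p = 0.309). Mcm5 had 155 and 126 FPKM alone and 159 and 156 FPKM with RBCs (0.17, SE 0.095, adjusted p = 0.517). For these 3 genes the libraries with RBCs lay above those without, but the difference did not pass the test. Both libraries with RBCs lay below the controls for Prim1 (100.8 and 108.1 against 93.2 and 92.0 FPKM), for Tk1 (80.2 and 87.4 against 75.8 and 77.2 FPKM) and for Slbp, the binder of histone mRNA stem loops (170.7 and 186 against 168 and 164 FPKM).

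For Mcm6 and Pcna, the members with the highest mean FPKM of their roles, the libraries in HSCs overlapped. Mcm6 had 362 and 361 FPKM alone and 366 and 352 FPKM with RBCs, and the interval of its log2 fold change was -0.15 to 0.13. Pcna had 382 and 420.5 FPKM alone and 399.8 and 406 FPKM with RBCs (interval -0.14 to 0.16). These intervals bound the change and do not show that the level was the same. Chaf1a, the large subunit of chromatin assembly factor 1, was at 0.16 (SE 0.092, adjusted p = 0.526). Mcm10 and Pold1, both at 0.19, had SEs of 0.19 and 0.17, and Rfc3 was at -0.079 (SE 0.12).

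**Figure D2:**
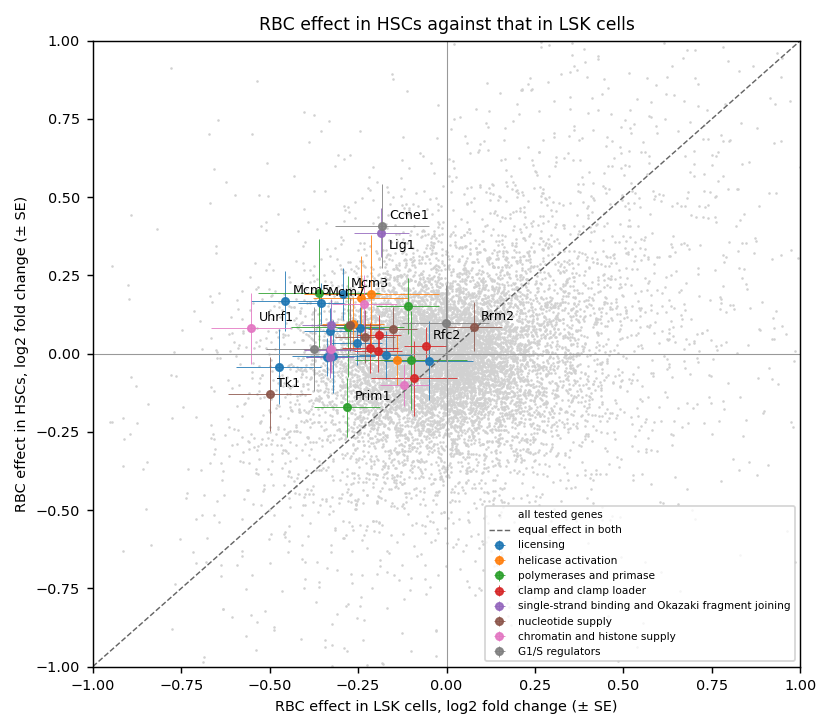
Log2 fold change with RBCs in HSCs (vertical) against that in LSK cells (horizontal) for the 41 genes, colored by role with bars of 1 SE, and for all 12003 tested genes (grey, 259 of them outside the axes). All 41 genes lie above the dashed line of equal effect, and 40 lie left of 0 on the horizontal axis.

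The difference between the effects (effect in HSCs minus effect in LSK cells, an interaction term) was above 0 for 41 of the 41 genes, with a median of 0.33. Over all tested genes 50.2% were above 0 and the median was 0.0013. As the members can move together, a shift shared by them in 1 library could give many of them the same sign. The count of 41 is thus a description and was not tested. Of the single genes, 0 passed an adjusted p under 0.05 (limma), a threshold that 0.05% of all tested genes passed with a value above 0 and 0.0833% with a value below 0. At an unadjusted p under 0.05 there were 22, all above 0, against 5.99% of all tested genes. The sign held for 38 of the 41 under quantile normalization and for 36 to 41 when 1 library was left out, with 36 without the second LSK library alone.

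The lowest adjusted p belonged to Mcm7, 0.0806, with a difference of 0.52 (95% interval 0.31 to 0.72). For Lig1 the difference was 0.57 (interval 0.32 to 0.82, adjusted p = 0.101). Mcm5 was at 0.62 (interval 0.32 to 0.93, adjusted p = 0.142), and Uhrf1 at 0.63 (interval 0.27 to 0.99, adjusted p = 0.185). These intervals, which are not adjusted for the number of genes, excluded 0, as did that of Mcm3, from 0.21 to 0.75. At the other end, the difference was 0.0084 for Rrm2, 0.013 for Rfc3 and 0.019 for Slbp. By role, the medians were 0.33 for licensing, 0.38 for helicase activation, 0.26 for polymerases and primase, 0.20 for the clamp and its loader, 0.38 for single-strand binding and fragment joining, 0.29 for nucleotide supply, 0.37 for chromatin and histone supply and 0.39 for the 3 G1/S regulators. Every role group thus had a median above 0, and the clamp group had the lowest.

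For 10 members all HSC libraries with RBCs lay above their controls and all LSK libraries with RBCs below theirs, as did 3.72% of all tested genes, and 0 members had the opposite pattern (4.07% of all tested genes). They were Gmnn, Mcm2, Mcm3, Mcm5, Mcm7, Rfc5, Lig1, Rrm1, Tyms and Chaf1a. Averaged over HSCs and LSK cells, the effect of RBCs had a median of -0.089, and 1 member passed as lower, Mcm6 (log2 fold change -0.17, adjusted p = 0.0484), against 1.99% of all tested genes.

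**Figure D3:**
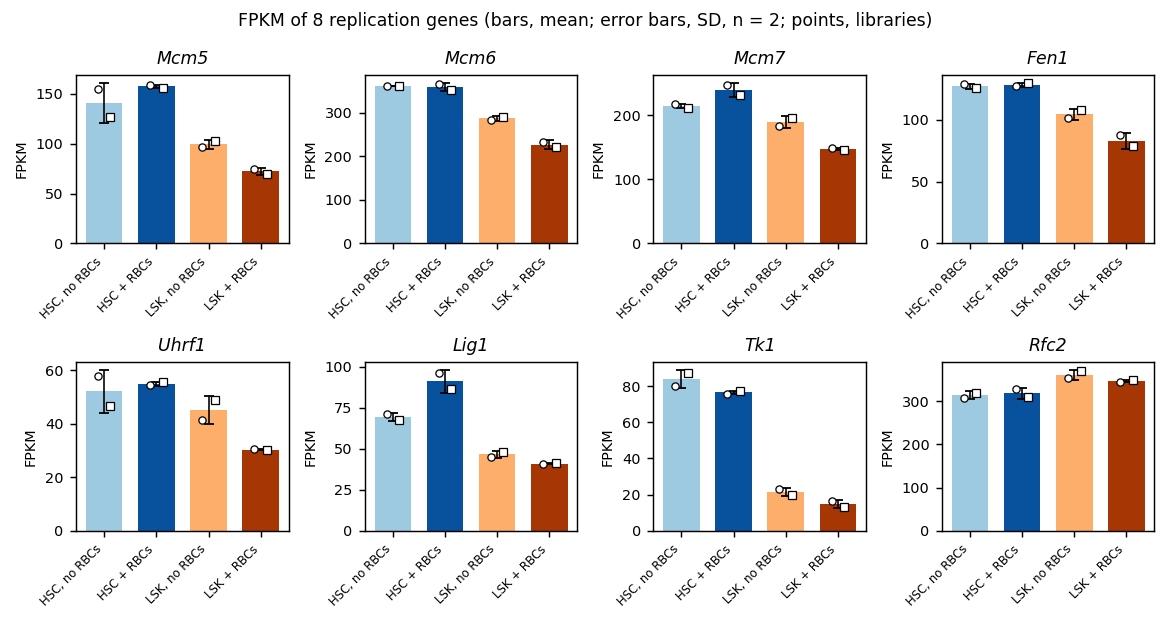
FPKM of 8 of the genes in the 4 groups (bars, mean; error bars, SD, n = 2; white circles and squares, replicates 1 and 2), on axes that start at 0. Lig1 rises with RBCs in HSCs, the helicase subunits, Fen1 and Uhrf1 are lower with RBCs in LSK cells, Tk1 is 3.94-fold lower in LSK cells than in HSCs without RBCs, and Rfc2 is above its HSC level in LSK cells.

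LSK cells and HSCs were next compared within each culture condition. These comparisons share libraries with those of RBCs above, so they are not independent of them. Without RBCs, 14 of the 41 genes were lower in LSK cells than in HSCs (7.29% of all tested genes) and 0 were higher (6.93%), with a median log2 fold change of -0.24 against 0.0085 over all tested genes. At an unadjusted p under 0.05, 1 gene was higher, Rfc2, against 14.1% of all tested genes. With RBCs in both, 35 of the 41 were lower (12.5% of all tested genes) and 0 were higher (11.9%), with a median of -0.57. At an unadjusted p under 0.05 again 0 were higher, against 18.5% of all tested genes (limma). Libraries did not overlap for 32 members without RBCs and 40 with RBCs that were lower in LSK cells, where 26.9% and 33.1% of all tested genes did so. Both counts moved in fits without 1 library, which keep a single library in that group and have fewer residual degrees of freedom. Over all alternatives the median stayed between -0.294 and -0.198 without RBCs and between -0.6 and -0.513 with RBCs.

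Tk1 stood apart. It had 80.2 and 87.4 FPKM in HSCs alone and 23.0 and 19.6 FPKM in LSK cells alone, so LSK cells were 3.94-fold lower by mean FPKM (log2 fold change -1.93, SE 0.12, adjusted p = 2.01e-05). With RBCs it had 75.8 and 77.2 FPKM in HSCs and 16.5 and 13.1 FPKM in LSK cells, 5.16-fold lower (-2.30, SE 0.12, adjusted p = 6.29e-06). It was the 1 member past 2-fold without RBCs, against 1.03% of all tested genes. Its neighbors in nucleotide supply, without RBCs, were between -0.13 (Rrm2) and -0.26 (Dut, which removes dUTP) on the log2 scale and did not pass.

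With RBCs, 3 members were past 2-fold (1.0% of all tested genes), Tk1 and a pair of others. Lig1 was 2.23-fold lower in LSK cells by mean FPKM (log2 fold change -1.13, SE 0.078, adjusted p = 3.32e-05) and Mcm5 2.18-fold lower (-1.12, SE 0.095, adjusted p = 9.6e-05). Without RBCs both were already lower in LSK cells, Lig1 by a log2 fold change of -0.56 (adjusted p = 0.0019) and Mcm5 by -0.49 (adjusted p = 0.0095). All 11 licensing genes were lower with RBCs, from -0.30 for Orc6 to -1.12 for Mcm5, and 6 of them without (Orc1, Gmnn, Mcm2, Mcm4, Mcm5 and Mcm6). Outside licensing, the genes lower without RBCs were Gins2, Prim1, Pcna, Rfc4, Fen1, Lig1, Tk1 and Slbp. Gins2, a GINS subunit, was at -0.49 (adjusted p = 0.00421) and Pcna at -0.35 (adjusted p = 0.00942). Of the exonic bases of Gins2, 67.3% are shared with Gse1 on the other strand, and 52.5% of those of Chaf1a with Ubxn6.

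E2f1, Ccne1 and Ccne2 did not pass without RBCs and were all lower with RBCs. Ccne1 had 17.6 and 14.7 FPKM in HSCs and 17.8 and 14.3 FPKM in LSK cells alone, values that overlapped (log2 fold change -0.011), and with RBCs 20.8 and 22.6 against 14.7 and 13.2 FPKM (-0.60, SE 0.13, adjusted p = 0.0112). The 6 members that did not pass with RBCs were Mcm10, Pold1, Pole, Rfc2, Rfc3 and Rrm2. Rfc2, a clamp loader subunit, was the exception in direction: it had 307.5 and 320.2 FPKM in HSCs alone and 354 and 369.6 FPKM in LSK cells alone (0.20, SE 0.061, adjusted p = 0.0565), and 328 and 310.1 against 345 and 349 FPKM with RBCs (0.12, adjusted p = 0.183). Of its exonic bases, 15.1% are shared with Lat2 on the other strand. Under quantile normalization 1 member was called higher in each condition, and under scaling of each library to the same FPKM sum 1 was higher without RBCs.

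**Figure D4:**
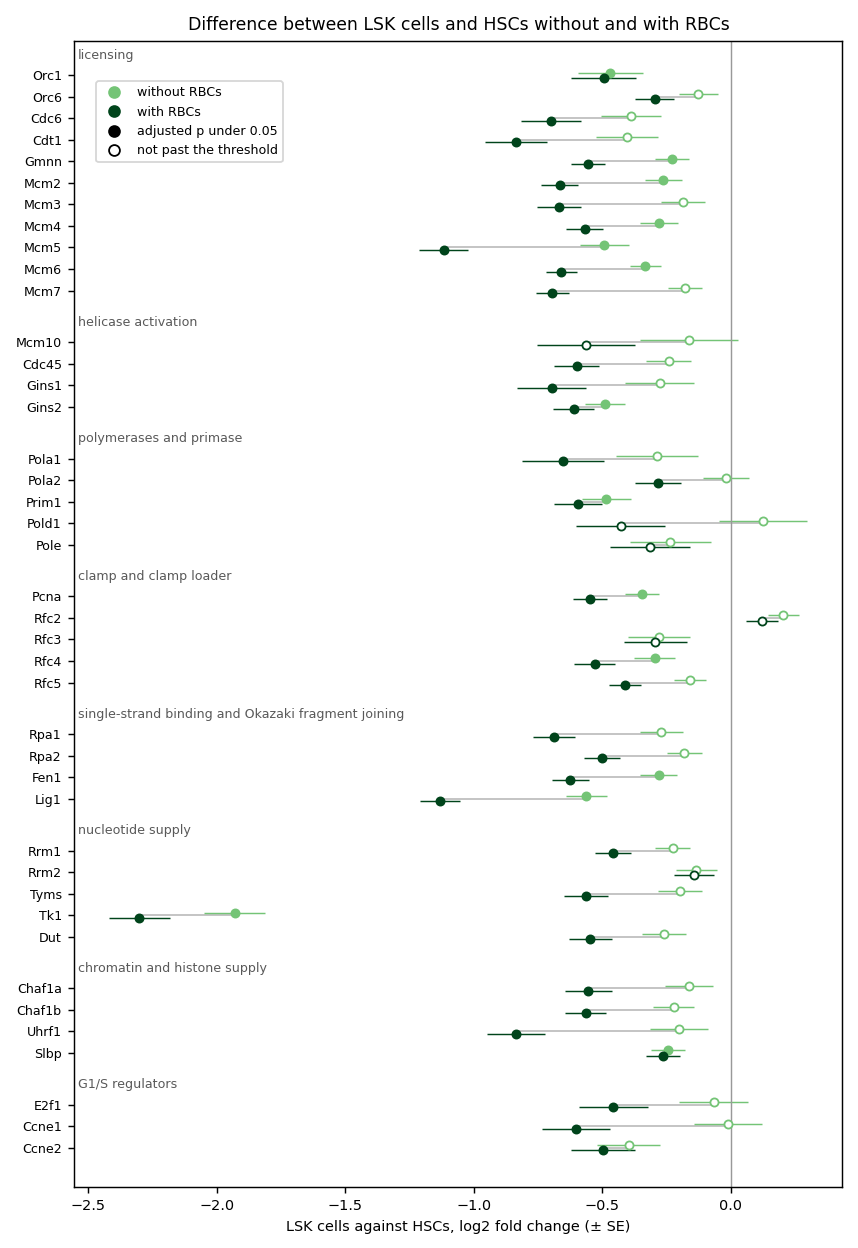
Log2 fold change of LSK cells against HSCs for each of the 41 genes without RBCs (light green) and with RBCs (dark green), with bars of 1 SE, where filled points have an adjusted p under 0.05. With RBCs 35 points are filled and all 41 lie further left than without, which restates the sign of the difference between the RBC effects, Tk1 lies beyond -1.9 in both, and Rfc2 lies right of 0 in both.

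Other genes of the same pathways were measured from lists of 35 further replication factors, 11 genes of nucleotide supply and 31 G1/S and E2F genes, and, for the later part of the cycle, 25 G2/M genes. In LSK cells with RBCs, where 1.13% of all tested genes fell and 2.32% rose, 4 of the 35 replication factors fell, with the smallest p for Rnaseh2c (log2 fold change -0.38) and Rnaseh2a (-0.41), subunits of the enzyme that removes ribonucleotides from DNA, while 1 rose, Pold4, the small subunit of polymerase delta (0.61, adjusted p = 0.00663). Of the 11 nucleotide genes 3 fell, led by Shmt1, a folate enzyme (-0.56, adjusted p = 0.00886), and of the 31 G1/S and E2F genes 1 fell, Cdca7 (-0.46, adjusted p = 0.00949). The medians were -0.18, -0.17 and -0.20, lower than the -0.0095 of all tested genes. Of the 25 G2/M genes 0 passed (limma), and the median was -0.14. At an unadjusted p under 0.05, 4 were lower and 1 higher, against 9.04% and 9.52% of all tested genes.

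In HSCs with RBCs, where 1.57% of all tested genes rose and 0.958% fell, 0 of the 77 genes in the first 3 lists passed (limma). At an unadjusted p under 0.05, 3 of the 77 were higher and 1 was lower, against 6.76% and 6.91% of all tested genes. Of the G2/M genes 1 rose, Ube2c, the ubiquitin-conjugating enzyme of the anaphase-promoting complex (log2 fold change 0.50, SE 0.071, adjusted p = 0.00694), and the median was 0.15. The difference between the effects was above 0 for 30 of 35, 8 of 11, 28 of 31 and 23 of 25 genes (50.2% of all tested genes). In any list 0 passed (limma). At an unadjusted p under 0.05, 10, 4, 10 and 8 were above 0, against 5.99% of all tested genes, and 1, 0, 0 and 0 below 0.

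Between the cell types, in LSK cells alone 4 of the 25 G2/M genes were higher than in HSCs (6.93% of all tested genes) and 0 lower (7.29%). At an unadjusted p under 0.05 (limma), 7 were higher, against 14.1% of all tested genes, and 1 was lower. Of the 25, 18 were above 0 and 7 below, with Ube2c at 0.73, Ccnb1, which encodes cyclin B1, at 0.55 and Cdc20, an activator of the anaphase-promoting complex, at 0.44, and the median was 0.13. With RBCs 2 were higher and 7 lower (median -0.13), against 11.9% and 12.5% of all tested genes. Against the shares just given for each comparison, of the 77 genes in the other lists 10 were lower and 1 higher without RBCs, and 46 were lower and 2 higher with RBCs, where Skp2, a subunit of the ubiquitin ligase for the inhibitor p27, was at -1.06.

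Markers of mature cells moved with the RBC culture too, and their part in the results above was not tested. The summed FPKM of 8 neutrophil markers was 32.4 to 38.8 in HSCs alone, 87.8 to 297 in HSCs with RBCs, 186 to 280 in LSK cells alone and 437 to 639 in LSK cells with RBCs. In HSCs 3 of the 8 rose and in LSK cells 1, where 1.57% and 2.32% of all tested genes rose. The same shares apply to the lists that follow. The sum of 6 monocyte or macrophage markers was 400 to 431 and 325 to 327 FPKM in HSCs and 268 to 355 and 458 to 568 FPKM in LSK cells, without and with RBCs, and 1 rose in each. Of 6 hemoglobin and heme genes 3 rose in HSCs and 1 in LSK cells. Their log2 fold changes ran from -1.14 to 5.99 in HSCs and from -1.25 to 4.22 in LSK cells. In the difference between the effects 1 of the 6 passed above 0, against 0.05% of all tested genes. Without and with RBCs they summed to 282 to 338 and 299 to 308 FPKM in HSCs. In LSK cells the sums were 111 to 177 and 119 to 183 FPKM. The hemoglobin genes are near-identical copies whose reads can be split. Of 7 erythroblast markers measured, 2 passed the filter, and the 7 summed to 3.23 to 4.78 FPKM in HSC and 4.8 to 9.07 FPKM in LSK libraries. For the effect of RBCs 0 were called in either cell type (limma, also at an unadjusted p under 0.05). B cell markers summed to 34.7 to 51.6 FPKM, T cell markers to at most 2.09 FPKM and platelet markers to 75.8 to 225 FPKM. In LSK cells with RBCs 1 platelet marker was lower, as were 1.13% of all tested genes. No marker was at 0 in all libraries.

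Genes of the stem and progenitor sort also differed with RBCs in HSCs, where 3 of 10 fell (Kit, Cd48 and Procr) and 1 rose (Cd34). Of all tested genes 0.958% fell and 1.57% rose. Kit, the receptor for stem cell factor, was at 126 and 118 FPKM in HSCs alone and 97.6 and 90.8 FPKM with RBCs. Cd48, whose product HSCs lack by the sort, was at 42.7 and 40.5 FPKM alone and 16.0 and 22.8 FPKM with RBCs, and Procr, an HSC marker, at 58.2 and 65.3 FPKM alone and 42.5 and 43.0 FPKM with RBCs. Cd34 was at 324 and 316.5 FPKM alone and 476.5 and 455 FPKM with RBCs. These genes thus moved in different directions, and the other markers did not pass. Slamf1 had 10.2 and 10.7 FPKM alone and 5.50 and 6.59 FPKM with RBCs, and Ly6a, which encodes Sca-1, 388 and 444 FPKM alone and 719 and 544 FPKM with RBCs. In LSK cells 0 of the 10 passed (limma). At an unadjusted p under 0.05, 1 was higher and 3 were lower, against 9.52% and 9.04% of all tested genes. Kit in LSK cells was at 135 and 136.5 FPKM alone and 110.0 and 113 FPKM with RBCs. The part of these genes in the values of the replication genes was not tested.

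In the GENCODE M21 annotation of GRCm38 the 41 genes lie on 15 chromosomes. For 16 of them some exonic bases are shared with another gene, and for 9 this is over 10%. Lig1 (chr7:13277283-13311433, plus strand) shares 5.79% and Tk1 (chr11:117815526-117826092, minus strand) 1.6% of its exonic bases, and Mcm5 (chr8:75109569-75128439, plus strand), Mcm6 (chr1:128331590-128359664, minus strand), Rpa2 and Uhrf1 share none. Tyms and Pcna have processed pseudogenes, so their values are less certain. Pseudogenes of the members were not searched for.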

How the data were processed

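HSCs and LSK cells cultured with or without RBCs were profiled by RNA sequencing (full-length cDNA by SMART-Seq HT, Nextera XT libraries), with 2 libraries per group as given in the sample titles. The authors deposited 1 FPKM value per gene symbol and library, a unit scaled by transcript length and library size. Scaling factors from median ratios between the libraries were 1.0002 to 1.0069. The alternative that used them therefore changed the values little. The submitters' processing notes name TopHat2 2.1.1, Bowtie2 2.2.8, SAMtools 0.1.18, Cuffdiff 2.2.1 and mm10, without roles. The gene annotation is not given in the sources used here.

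From these values log2(FPKM + 1) was computed, which understates changes of genes with low FPKM. limma 3.58.1 (R 4.3.3) fitted the 4 group means together with a mean-variance trend over the 12003 genes at or above 1 FPKM in 2 or more libraries (4 residual degrees of freedom, prior 5.18). A gene passed at a Benjamini-Hochberg adjusted p under 0.05 over all tested genes. A single value compared in 2 against 2 libraries by an exact two-sided permutation test cannot go below p = 0.333. The same floor holds for a sum or median over the members, which is a single value per library. The procedure was tested on simulated data.

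The members and all gene lists were chosen with earlier results of these data known, so no p-value was adjusted over a list alone. By rule, full statistics were open to members that passed in a comparison and, by role, to the member with the highest mean FPKM and the one with the largest change with RBCs in each cell type, and they are printed for those the text describes singly. Those of Rfc2 were added after its values were seen. Of the other lists at most the 5 genes with the smallest p per comparison are named. Alternatives covered the pseudocount, filters, scalings, the samples fitted, a replicate block, the trend, array weights, thresholds and the omission of each library. Same-numbered libraries did not deviate together (r between -0.067 and 0.0954), so the numbers were not used as pairs.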

Additional observations from a re-analysis of the deposited data

Results flagged for a closer look

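For 10 of the 41 genes both HSC libraries with RBCs lay above both controls while both LSK libraries with RBCs lay below both of theirs, as for 3.72% of all tested genes. The difference between the 2 effects (log2 scale, HSCs minus LSK cells) was 0.624 for Mcm5, 0.571 for Lig1, 0.517 for Mcm7, 0.483 for Mcm3, 0.403 for Mcm2, 0.392 for Chaf1a, 0.366 for Tyms, 0.327 for Gmnn, 0.251 for Rfc5 and 0.232 for Rrm1. The difference was tested for each by limma, and 0 of the 10 passed an adjusted p under 0.05, while all 10 had an unadjusted p under 0.05, which is no support because they were picked on the same values.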

How the results depend on the processing

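The number of members called moved with the processing. A fit without 1 library keeps a single library in that group and has fewer residual degrees of freedom, so its counts are not comparable with the others. Over all alternatives the median over the members ranged from 0.0237 to 0.0952 for RBCs in HSCs, -0.287 to -0.198 in LSK cells, 0.281 to 0.355 for the difference, -0.119 to -0.0547 for the average, and -0.294 to -0.198 and -0.6 to -0.513 for LSK cells against HSCs without and with RBCs. The 1 member higher with RBCs in HSCs became 0 with all genes above 0 tested, with only the 2 groups fitted, with a replicate block, without the trend, with array weights, at 2-fold and in every fit without 1 library (0 to 0). The 7 members lower in LSK cells became 1 with all genes above 0 tested, 4 under quantile normalization or with only the 2 groups fitted, 3 under scaling to an equal sum, 2 with the block, 0 without the trend or at 2-fold, 12 at an adjusted p under 0.10, and 0 to 10 without 1 library. The difference between the effects gave 1 call at 0.10 in place of 0. The averaged effect gave 0 in place of 1 with a pseudocount of 0.1, all genes tested, each of the 3 scalings, the block, no trend or 2-fold, 4 at 0.10, and 0 to 1 without 1 library. For LSK cells against HSCs without RBCs, the 14 lower genes became 7 with all genes or array weights, 8 under equal sums, the block or no trend, 6 with 2 groups, 1 at 2-fold, and 4 to 10 without 1 library, and the 0 higher became 1 under quantile normalization, equal sums or 0.10. With RBCs the 35 became 3 at 2-fold, and the 0 higher became 1 under quantile normalization. The cause of these moves was not tested. As no number pairs the libraries, the block is given here only, and it left the count with RBCs at 34.

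No member turned sign in a comparison in which it passed, under any alternative run. Over all 41, from 25 to 36 were above 0 for RBCs in HSCs (29 as reported), 1 to 5 in LSK cells (1 as reported) and 36 to 41 for the difference (41 as reported). Among the members followed singly (those that passed and, in both RBC effects and their difference, the ones chosen by role), these turned sign. With RBCs in HSCs, Mcm6 turned to 0.00263, Rpa2 to 0.000459 (quantile), and under equal sums they were at 0.0244 and 0.0246, and Gins2 at 0.0146. Without 1 library, E2f1 ranged from -0.213 to 0.244, Gins2 from -0.0519 to 0.0124, Mcm10 from -0.15 to 0.529, Mcm6 from -0.0386 to 0.018, Pcna from -0.0612 to 0.0757, Pold1 from -0.00732 to 0.395, Rfc3 from -0.227 to 0.0686 and Rpa2 from -0.0733 to 0.0533. In the difference between the effects, Slbp turned to -0.0156 (quantile) and ranged from -0.0415 to 0.0804 without 1 library, and Prim1 from -0.00975 to 0.229. Members not followed singly in a comparison also turned. In the difference 3 members in all were below 0 under quantile normalization and 5 without the second LSK library alone. In LSK cells 5 were above 0 without the second LSK library alone and 3 without the second LSK library with RBCs, against 1 as reported.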
